A study of Homo sapiens with 9 samples.

Results

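The messenger RNAs of the thyroid hormone receptors and of the proteins that work with them were followed in HepG2 cells given vehicle, triiodothyronine (T3) or GC-1. The members were 10 genes chosen by name. They were the receptor genes THRA and THRB, the retinoid X receptor genes RXRA and RXRB, the coactivator genes NCOA1, NCOA2 and MED1, and the corepressor genes HDAC3, TBL1X and HR. Every probe set whose annotation gives 1 gene symbol, and a member as that symbol, was taken, which gave 28 of 22215 probe sets for 10 of 11963 genes.

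HepG2 is an established line from a human liver tumour. All 3 groups had been washed and moved to medium with serum depleted of thyroid hormone, and were then given vehicle, 10 nM T3 or 10 nM of the synthetic receptor ligand GC-1, with RNA taken at 24 h. Each group held 3 Affymetrix arrays, 9 in all, and the labels do not say whether these came from separate cultures, so the p-values measure the spread between these arrays, which may be technical. All values are log2 signals, and a difference of 1 is a 2-fold change.

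Thyroid hormone receptors sit on DNA in the nucleus, usually as a pair with a retinoid X receptor, whether or not hormone is bound. Without hormone they hold corepressor complexes in which TBL1X and the histone deacetylase HDAC3 take part, and hormone exchanges these for coactivators such as NCOA1 and NCOA2 and for the Mediator complex, which docks through MED1. THRA and THRB encode the alpha and beta receptor; the beta form prevails in liver, and GC-1 binds it with preference. The question here was whether the supply of these messages itself differed when either ligand was present.

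The stretch upstream of an annotated start of each receptor gene is shown because both ligands act through the receptors that these genes encode. They come from RefSeq on GRCh38.p14, where 8 of the 10 members had 14 windows in all, and each window holds the 250 bases before a start. The THRA window is chr17:40062715-40062964 on the plus strand. It lies inside the THRA span of 40062193 to 40093867, before an internal start, not upstream of the whole gene. The THRB window, 1 of 2 for that gene, is chr3:24495709-24495958 on the minus strand. Both are written 5′ to 3′ along the gene. Capitals mark the GC box GGGCGG read on either strand, with overlapping matches merged.
THRA: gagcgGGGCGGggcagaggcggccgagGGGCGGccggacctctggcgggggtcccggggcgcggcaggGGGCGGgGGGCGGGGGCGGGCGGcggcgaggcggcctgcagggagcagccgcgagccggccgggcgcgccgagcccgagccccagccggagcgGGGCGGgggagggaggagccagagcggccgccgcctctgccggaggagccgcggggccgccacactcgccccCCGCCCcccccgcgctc
THRB: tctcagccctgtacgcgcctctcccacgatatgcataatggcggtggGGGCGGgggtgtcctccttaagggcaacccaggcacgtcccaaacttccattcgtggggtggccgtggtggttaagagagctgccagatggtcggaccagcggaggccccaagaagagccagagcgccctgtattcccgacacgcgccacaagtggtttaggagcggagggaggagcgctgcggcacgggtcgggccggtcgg
The THRA window held 8 GC boxes, overlapping matches included, and the THRB window held 1. A GC box on either strand was present in 10 of the 14 member windows and in 42.6% of all 35116 windows of that length. The hormone response half-site AGGTCA, searched on both strands, was in 0 of the 14 member windows and in 12.1% of all windows. A direct repeat of it with 4 spacer bases, on either strand, was in 0 of 14 and in 0.0142% of all. The CCAAT box, CCAAT on either strand, was in 3 of 14 and in 32.0% of all. These are matches of letters in 1 short window for each start and say nothing of bound factors.

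No member passed the test in any comparison. Under T3, 0 of 28 member probe sets had an adjusted p under 0.05 in limma, against 5.5% of all probe sets. With GC-1 the count was 0 of 28 against 2.8% of all. GC-1 set directly against T3 gave 0 of 28 against 0% of all, and the mean of the ligands against vehicle gave 0 of 28 against 5.53%. The smallest adjusted p among the members in these comparisons were 0.0662, 0.249, 0.198 and 0.0995.

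The cells did respond to both ligands. KLF9, a transcription factor gene known as a direct target of thyroid hormone, read 6.36, 6.16 and 6.39 in vehicle, 7.35, 7.71 and 7.34 with T3 and 7.51, 7.33 and 7.44 with GC-1. It rose by 1.17 (adjusted p 4.75e-05) and 1.13 (0.000105). G6PC1, which encodes the catalytic subunit of glucose-6-phosphatase, rose by 2.43 and 1.96. Of 8 measured hepatocyte markers 1, FGB, rose under either ligand, and ALB and AFP had vehicle means of 14.4. Of the 8 measured markers of other cell types 0 changed in any comparison. Among 11963 genes 6.22% changed under T3 and 3.26% under GC-1. At an unadjusted p under 0.05 in limma there were 1 of the 8 markers of other cell types for T3 and 2 for GC-1. Of the 8 hepatocyte markers there were 4 for T3 and 1 for GC-1. Among all probe sets the shares were 21.1% and 15.9%. Vehicle means were 4.88 for the leukocyte marker PTPRC, 4.83 for the endothelial CDH5 and 5.19 for the fibroblast COL3A1, while COL1A1 and ACTA2 were at 9.19 and 10.2. Array medians lay between 7.02 and 7.06. The interquartile range was 2.99 and 2.97 on T3 replicates 1 and 2, which stand apart. On the other 7 arrays it was 2.83 to 2.88. Each array's range was therefore also fitted as a covariate, called the range covariate below. The GC-1 arrays, at 2.83, 2.85 and 2.85, were all below the vehicle arrays, at 2.87, 2.88 and 2.87. The range thus goes partly with the group, and fitting it can also take up a ligand difference. This covariate turned the sign or moved the value by over 1.5 times in 24 of 28 members for T3 minus vehicle. For GC-1 minus vehicle it did so in 12, and for GC-1 minus T3 in 25. The T3 differences it moved so far are given below with it as well, with the adjusted p in parentheses.

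**Figure D1:**
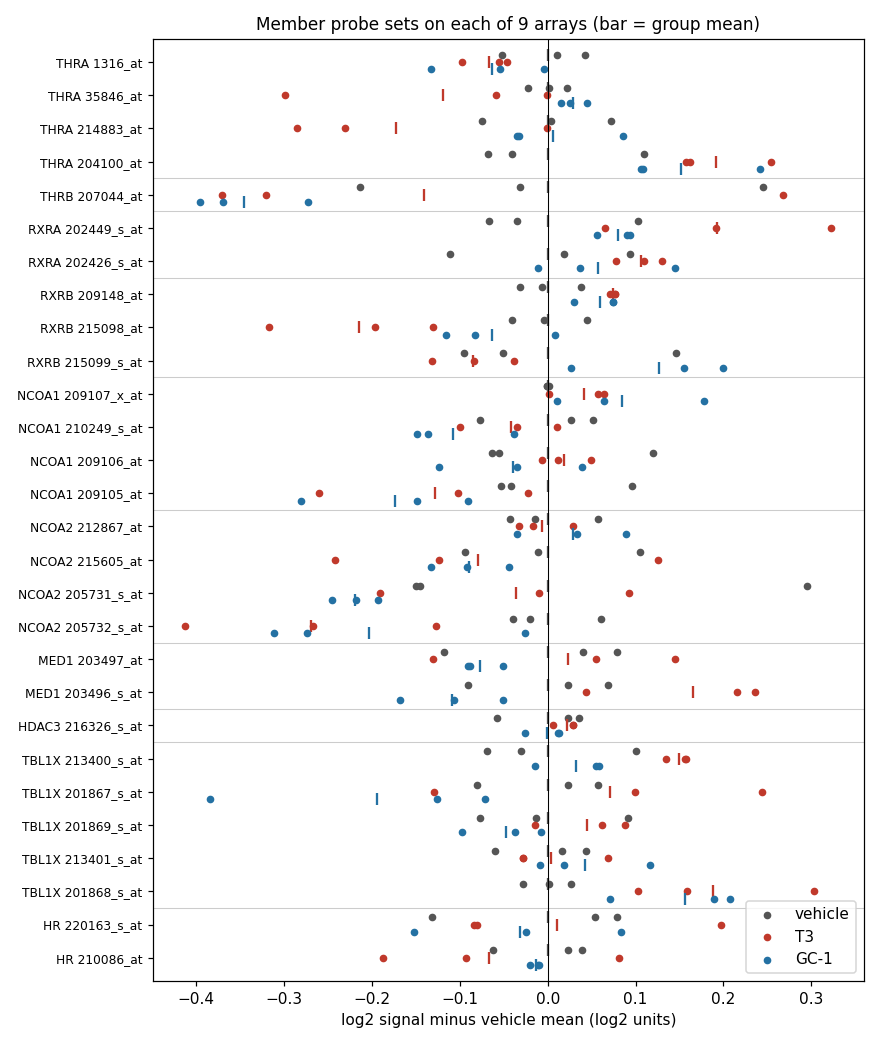
Log2 signal of each of the 28 member probe sets (rows) on each of the 9 arrays, as the difference from the probe set's vehicle mean, with points coloured by group and a bar at each group mean. THRB spreads most, from 7.02 to 7.68 in signal, HDAC3 stays within 0.09, and T3 lies wholly to one side of vehicle in 6 rows and GC-1 in 5.

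THRA, on chromosome 17 (GRCh38.p14, 40062193 to 40093867), has 4 probe sets, whose differences from vehicle did not share a sign. The brightest, 1316_at, read 7.04, 7.07 and 6.97 in vehicle, 6.97, 6.98 and 6.93 with T3 and 6.89, 7.02 and 6.97 with GC-1. These groups overlapped. The log2 difference was -0.07 ± 0.05 (SE) for T3 and -0.06 for GC-1, with adjusted p of 0.511 and 0.62, and the T3 value was -0.12 (0.315) with the range covariate. Probe set 204100_at read 5.87, 5.69 and 5.71 in vehicle, 6.01, 5.92 and 5.91 with T3 and 5.998, 5.86 and 5.86 with GC-1. All 3 T3 arrays lay above all vehicle arrays, by 0.19 ± 0.06 (adjusted p 0.114), and the GC-1 difference of 0.15 had an adjusted p of 0.269.

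The remaining THRA probe sets, like the first, had negative T3 differences. Values of 214883_at were 6.39, 6.24 and 6.32 in vehicle, 6.03, 6.08 and 6.31 with T3 and 6.28, 6.40 and 6.28 with GC-1. T3 replicates 1 and 2 were the lowest arrays and T3 replicate 3 lay among the vehicle values. The T3 difference of -0.17 ± 0.08 had an adjusted p of 0.225. Leaving out T3 replicate 3 made it -0.26 with an adjusted p of 0.0389, whereas the range covariate made it 0.00 (0.981), the ends of the range of p over its alternatives. The GC-1 difference was 0.01 (adjusted p 0.984), and -0.06 (0.686) with the range covariate. Probe set 35846_at read 6.60, 6.62 and 6.65 in vehicle, 6.57, 6.33 and 6.62 with T3 and 6.67, 6.64 and 6.65 with GC-1, with T3 replicate 2 as the low array. Its differences were -0.12 for T3 (adjusted p 0.369) and 0.03 for GC-1 (0.899). Fitting the range covariate made them -0.02 (0.933) and -0.01 (0.961), so that of GC-1 changed sign. The mean of the 4 THRA probe sets differed from vehicle by -0.04 under T3 and 0.03 under GC-1, with adjusted p of 0.624 and 0.791 over 11963 genes.

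THRB, on chromosome 3 (24117153 to 24495708), has 1 probe set, 207044_at, and its level was the least certain of the members. It read 7.38, 7.66 and 7.20 in vehicle, 7.68, 7.04 and 7.09 with T3 and 7.01, 7.04 and 7.14 with GC-1. The 3 GC-1 arrays lay below all vehicle arrays, while T3 replicate 1 was higher than any vehicle array and the other T3 arrays were lower than all of them. The T3 difference was -0.14 ± 0.15 (95% interval -0.48 to 0.20, adjusted p 0.655). The GC-1 difference was -0.35 (-0.69 to -0.01, adjusted p 0.306), the most negative of all member differences from vehicle. Its SE of 0.15 is at the 99.8th percentile of all probe sets. Without T3 replicate 1 the T3 difference was -0.35 (adjusted p 0.130), and with the range covariate it was -0.42 (0.225) and that of GC-1 -0.23 (0.531). A 1.5-fold fall in THRB under GC-1 lies inside the interval of -0.69 to -0.01, from the fit without the range covariate. With that covariate the GC-1 interval did not reach 1.5-fold.

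**Figure D2:**
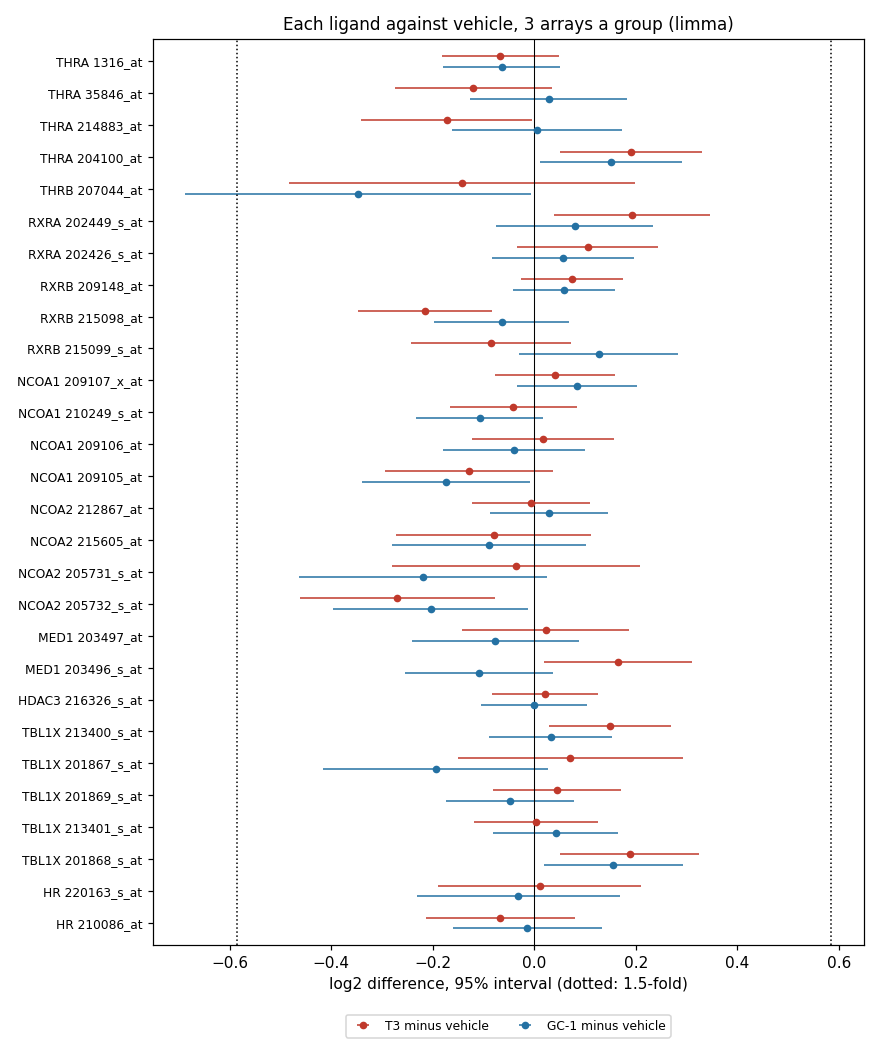
Log2 difference from vehicle with its 95% interval (points and bars) for each member probe set, T3 and GC-1 as separate colours, 3 arrays a group, dotted lines at 1.5-fold. In this fit, without the range covariate, all T3 intervals and all GC-1 intervals but that of THRB lie inside the dotted lines.

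RXRA, on chromosome 9 (134326455 to 134440585), encodes the main retinoid X receptor of liver. Probe set 202449_s_at read 8.16, 8.33 and 8.20 in vehicle, 8.55, 8.42 and 8.29 with T3 and 8.32, 8.32 and 8.29 with GC-1. T3 replicates 1 and 2 were the highest arrays, and T3 replicate 3 lay below vehicle replicate 2. The T3 difference was 0.19 ± 0.07 (0.04 to 0.35, adjusted p 0.144), and the GC-1 difference was 0.08 (0.647). This value depends on the arrays used: without T3 replicate 3 the T3 difference was 0.26 with an adjusted p of 0.0463, with array weights 0.24 with 0.0498, and with the range covariate 0.04 (0.771). The second RXRA probe set, 202426_s_at, read 7.66, 7.74 and 7.53 in vehicle, 7.75, 7.77 and 7.72 with T3 and 7.63, 7.68 and 7.79 with GC-1. The groups overlapped, and the differences were 0.11 (0.377), or 0.05 (0.755) with the range covariate, and 0.06 (0.738).

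RXRB, on chromosome 6 (33193588 to 33200853), encodes the more widely expressed beta form, and its 3 probe sets differed in sign. For 209148_at, the brightest, the arrays read 7.99, 8.06 and 8.02 in vehicle, 8.10, 8.10 and 8.09 with T3 and 8.10, 8.10 and 8.05 with GC-1. All T3 arrays were above vehicle, but only by 0.07 (adjusted p 0.391). Probe set 215098_at read 6.48, 6.53 and 6.44 in vehicle, 6.16, 6.28 and 6.35 with T3 and 6.40, 6.49 and 6.37 with GC-1. Here all T3 arrays were below vehicle and below GC-1. The T3 difference of -0.21 ± 0.06 (-0.35 to -0.08) had the smallest adjusted p of any member, 0.0662.

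That RXRB value crossed the threshold in 3 of 17 alternatives, and the adjusted p ran from 0.0339 to 0.371. The upper end is from probe sets averaged by gene and belongs to the mean of the 3 RXRB probe sets. It was 0.0350 without T3 replicate 3, where the difference was -0.26, 0.0339 with array weights, and 0.0398 when only probe sets with a mean signal of at least 6 were tested. With the range covariate it was -0.13 (0.328). The dimmest RXRB probe set, 215099_s_at, read 5.95, 6.15 and 5.91 in vehicle, 5.87, 5.96 and 5.92 with T3 and 6.20, 6.03 and 6.16 with GC-1. It gave -0.09 for T3 (0.544) and 0.13 for GC-1 (0.43). The mean over the RXRB probe sets was -0.08 for T3 and 0.04 for GC-1, with adjusted p of 0.371 and 0.718.

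NCOA1, a p160 coactivator also called SRC-1, lies on chromosome 2 (24491254 to 24770702) and has 4 probe sets. Probe set 209107_x_at read 7.66, 7.66 and 7.66 in vehicle, 7.66, 7.72 and 7.73 with T3 and 7.84, 7.73 and 7.67 with GC-1. GC-1 lay above vehicle by 0.08 (adjusted p 0.496), T3 by 0.04 (0.716), or 0.09 (0.491) with the range covariate. Probe set 209105_at read 6.21, 6.06 and 6.07 in vehicle, 6.09, 6.01 and 5.85 with T3 and 5.96, 6.02 and 5.83 with GC-1. There the GC-1 arrays were all below vehicle, with a difference of -0.17 ± 0.07 (0.285), so that 2 probe sets of this gene separated GC-1 from vehicle in opposite directions. Its T3 difference was -0.13 (0.365), and -0.26 (0.105) with the range covariate. The other 2 NCOA1 probe sets had overlapping groups. Values of 210249_s_at were 7.66, 7.53 and 7.63 in vehicle, 7.57, 7.62 and 7.51 with T3 and 7.57, 7.46 and 7.47 with GC-1, differences of -0.04, or -0.08 (0.595) with the range covariate, and -0.11. Those of 209106_at were 6.58, 6.58 and 6.76, 6.65, 6.69 and 6.63, and 6.52, 6.61 and 6.68 in the same order, differences of 0.02, or -0.01 (0.971) with it, and -0.04.

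NCOA2, the p160 coactivator also called GRIP1 or TIF2, lies on chromosome 8 (70109782 to 70456446). Its brightest probe set, 212867_at, read 9.34, 9.27 and 9.24 in vehicle, 9.31, 9.27 and 9.25 with T3 and 9.37, 9.31 and 9.25 with GC-1. All groups overlapped there, with differences of -0.01, or -0.03 (0.849) with the range covariate, and 0.03. The dimmest, 205732_s_at, read 5.32, 5.30 and 5.40 in vehicle, 5.08, 5.22 and 4.93 with T3 and 5.07, 5.03 and 5.32 with GC-1. T3 arrays were all below vehicle, with a difference of -0.27 ± 0.09 (-0.46 to -0.08, adjusted p 0.105), and 2 of 3 GC-1 arrays were, for a difference of -0.20 (0.278). The T3 value was -0.41 (0.0571) with the range covariate. The mean of the ligands was -0.24 (0.104), and it passed in 2 of 15 alternatives, with an adjusted p of 0.0411 without GC-1 replicate 3 and 0.0385 with the range covariate. At most it was 0.307.

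The other NCOA2 probe sets did not separate T3 from vehicle. Probe set 205731_s_at read 5.62, 5.18 and 5.18 in vehicle, 5.32, 5.13 and 5.42 with T3 and 5.13, 5.08 and 5.11 with GC-1. Vehicle replicate 1 stood above the rest. The GC-1 arrays were all below vehicle, with a difference of -0.22 (adjusted p 0.373), and the T3 difference was -0.04, or 0.08 (0.786) with the range covariate. For 215605_at the values were 6.41, 6.61 and 6.50 in vehicle, 6.63, 6.26 and 6.38 with T3 and 6.46, 6.41 and 6.37 with GC-1, differences of -0.08, or -0.16 (0.47) with the range covariate, and -0.09. Averaged over its 4 probe sets, NCOA2 differed from vehicle by -0.10 under T3 and -0.12 under GC-1, with adjusted p of 0.247 and 0.203.

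MED1, the Mediator subunit that receptors contact directly, lies on chromosome 17 (39404285 to 39451263). Probe set 203497_at read 9.46, 9.65 and 9.62 in vehicle, 9.72, 9.63 and 9.44 with T3 and 9.52, 9.49 and 9.48 with GC-1, with overlapping groups. It differed by 0.02 under T3, or -0.14 (0.329) with the range covariate, and by -0.08 under GC-1. Probe set 203496_s_at read 7.61, 7.77 and 7.73 in vehicle, 7.94, 7.92 and 7.75 with T3 and 7.60, 7.65 and 7.54 with GC-1. T3 replicates 1 and 2, the arrays with the wide range, were the highest, and both ligand groups overlapped vehicle. The differences were 0.17 ± 0.07 (adjusted p 0.183) and -0.11 ± 0.07 (0.475). They were 0.04 (0.814) and -0.06 (0.713) with the range covariate.

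HDAC3, the deacetylase of the nuclear receptor corepressor complex, lies on chromosome 5 (141620881 to 141636849). It was the steadiest member. Its only probe set, 216326_s_at, read 9.59, 9.49 and 9.57 in vehicle, 9.58, 9.56 and 9.58 with T3 and 9.56, 9.56 and 9.53 with GC-1. The T3 difference was 0.02 (-0.08 to 0.13), or 0.04 (0.772) with the range covariate, and the GC-1 difference -0.00 (-0.10 to 0.10).

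TBL1X, on the X chromosome (9463295 to 9719740), encodes a scaffold subunit of the same corepressor complex and has 5 probe sets. Probe set 213400_s_at, the brightest, read 9.86, 9.69 and 9.73 in vehicle, 9.92, 9.92 and 9.90 with T3 and 9.75, 9.82 and 9.82 with GC-1. T3 arrays were above vehicle by 0.15 ± 0.05 (adjusted p 0.15); GC-1 differed by 0.03. Probe set 201868_s_at read 6.55, 6.58 and 6.60 in vehicle, 6.74, 6.88 and 6.68 with T3 and 6.77, 6.65 and 6.79 with GC-1. All 6 ligand arrays lay above all 3 vehicle arrays, which held for 1 of 28 members and, in either direction, for 12.3% of all probe sets.

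The TBL1X difference in 201868_s_at was 0.19 for T3 (0.05 to 0.33, adjusted p 0.113), 0.16 for GC-1 (0.02 to 0.29, 0.249) and 0.17 for the mean of the ligands (0.0995). With the range covariate these became 0.12 (0.396), 0.18 (0.204) and 0.15 (0.104). The other 3 probe sets overlapped vehicle under both ligands. Probe set 201867_s_at read 7.93, 7.83 and 7.97 in vehicle, 8.01, 8.15 and 7.78 with T3 and 7.79, 7.84 and 7.53 with GC-1. It gave 0.07 for T3 and -0.19 for GC-1 (adjusted p 0.384), of the opposite sign to 201868_s_at under GC-1. The range covariate turned its T3 difference to -0.10 (0.688). The values of 201869_s_at were 7.82, 7.71 and 7.65 in vehicle, 7.71, 7.81 and 7.79 with T3 and 7.72, 7.63 and 7.69 with GC-1. Those of 213401_s_at were 7.65, 7.62 and 7.55, 7.58, 7.58 and 7.68, and 7.60, 7.63 and 7.72 in the same order. The differences of both lay within 0.05 of vehicle, between -0.05 and 0.04; with the range covariate their T3 differences were 0.08 (0.607) and 0.06 (0.689). The mean of the 5 TBL1X probe sets differed by 0.09 under T3 and -0.00 under GC-1, with adjusted p of 0.246 and 0.986.

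HR, on chromosome 8 (22114419 to 22131052), encodes the hairless corepressor, which binds thyroid hormone receptors and is known as a hormone target in brain. Probe set 220163_s_at read 6.78, 6.57 and 6.75 in vehicle, 6.90, 6.62 and 6.62 with T3 and 6.68, 6.55 and 6.79 with GC-1. Probe set 210086_at read 5.92, 5.94 and 5.83, 5.71, 5.80 and 5.98, and 5.89, 5.89 and 5.88 in the same order. Neither separated any group. The T3 differences were 0.01 (-0.19 to 0.21) and -0.07 (-0.21 to 0.08), and those of GC-1 were -0.03 and -0.01. With the range covariate both T3 differences changed sign, to -0.09 (0.708) and 0.09 (0.482), and the first GC-1 difference did, to 0.01 (0.982). Without it the smallest adjusted p of HR against vehicle was 0.621.

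Across the members, the size of the differences resembled that of the array as a whole. Under T3 the median of the absolute log2 difference was 0.0772 for the 28 member probe sets and 0.0767 for all, and under GC-1 it was 0.0702 and 0.0657. The signed medians were 0.01 and -0.02 for T3, and -0.02 and -0.00 for GC-1. At an unadjusted p under 0.05 there were 8 of 28 members for T3, 28.6%, against 21.1% of all probe sets. For GC-1 there were 5 against 15.9% of all, for GC-1 minus T3 5 against 14.1%, and for the mean of the ligands 6 against 19%. Groups did not overlap in 6 members for T3, against 24.9% of all probe sets, and in 5 for GC-1, against 26.5%. Of the 28 members that is 21.4% and 17.9%. Both ligands were compared with the same 3 vehicle arrays, so their differences are not independent of each other.

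In the fit without the range covariate, the 95% intervals were as follows. For T3 all 28 members had an interval inside 1.5-fold in either direction, as had 98.6% of all probe sets. For GC-1 it was 27, THRB being the exception, against 98.9%. For GC-1 minus T3 it was 28 against 99.8%, and for the mean of the ligands 28 against 99.1%. With the range covariate 26 intervals lay inside for T3, with THRB and NCOA2 205732_s_at outside, 28 for GC-1, 26 for GC-1 minus T3, with THRB and NCOA2 205731_s_at outside, and 27 for the mean of the ligands, with THRB outside. The THRB interval for T3 also passed 1.5-fold without T3 replicate 1 or without vehicle replicate 3, and that for GC-1 stayed inside without vehicle replicate 2, without T3 replicate 1 and in a fit of the vehicle and GC-1 arrays alone. THRB was likewise outside for GC-1 minus T3 with array weights and without T3 replicate 2 or 3 or GC-1 replicate 2 or 3, and for the mean of the ligands without vehicle replicate 1 or 3. The median SE was 0.0651 for members and 0.0661 for all probe sets without the covariate, for each ligand against vehicle. With it the median SE of the members was 0.0820 for T3 minus vehicle and 0.0613 for GC-1 minus vehicle. For GC-1 minus T3 it was 0.100 with the covariate and 0.0651 without.

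**Figure D3:**
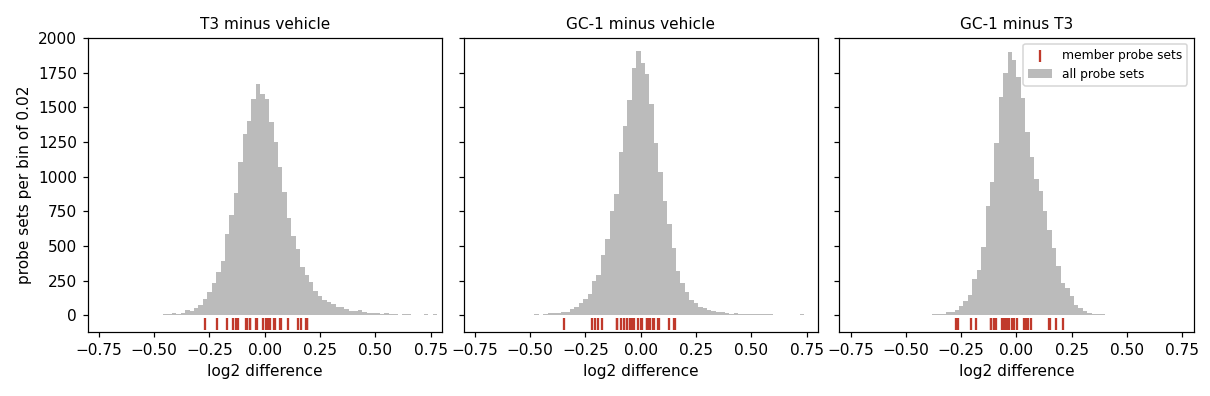
Number of probe sets (grey, of 22215) by log2 difference in bins of 0.02 for T3 minus vehicle, GC-1 minus vehicle and GC-1 minus T3, with the 28 member probe sets as red ticks below; probe sets beyond the axis limits are not drawn. The members run from -0.27 to 0.19, from -0.35 to 0.16 and from -0.27 to 0.21. They lie inside the range of all probe sets, with the lowest of each in the tail.

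GC-1 was then set against T3 directly, at the same dose and time, in 1 comparison for each of the 28 member probe sets, with p-values adjusted over all 22215. MED1 differed most in this comparison. In 203496_s_at, whose values are given above, all 3 GC-1 arrays lay below all 3 T3 arrays, with a difference of -0.27 ± 0.07 (-0.42 to -0.13), with an unadjusted p of 0.00171 and an adjusted p of 0.198. Without T3 replicate 3 this MED1 difference was -0.33 with an adjusted p of 0.0406, and with the range covariate it was -0.09 (0.675). The other MED1 probe set gave -0.10 (-0.26 to 0.07), of the opposite sign with the range covariate, 0.13 (0.583), and the mean of both gave -0.19 with an adjusted p of 0.261.

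RXRB and THRA held the members in which GC-1 lay above T3 on all arrays. RXRB 215099_s_at differed by 0.21 ± 0.07 (0.06 to 0.37, adjusted p 0.256) and RXRB 215098_at by 0.15 (0.312), whereas RXRB 209148_at differed by -0.01 (-0.12 to 0.09). With the range covariate these were 0.20 (0.483), 0.03 (0.9) and -0.01 (0.971). THRA 35846_at differed by 0.15 (-0.01 to 0.30, adjusted p 0.373), and THRA 1316_at by 0.00 (-0.11 to 0.12). These were 0.00 (0.991) and 0.07 (0.708) with the range covariate. THRA 214883_at, whose arrays overlapped, gave 0.18 (0.01 to 0.35, adjusted p 0.336), and the range covariate turned its sign, to -0.07 (0.778). THRB, the receptor GC-1 prefers, gave -0.20 with a wide interval of -0.55 to 0.14 (adjusted p 0.567); without T3 replicate 1 that difference was -0.00, and with the range covariate it had the opposite sign, 0.19 (0.758). GC-1 also lay below T3 on all arrays in NCOA2 205731_s_at, where the difference was -0.18 (0.476), and in TBL1X 213400_s_at, where it was -0.12 (0.368). The range covariate made them -0.35 (0.432) and -0.09 (0.688). TBL1X 201867_s_at, with overlapping arrays, gave -0.27 (-0.49 to -0.04, adjusted p 0.294), and -0.03 (0.952) with the range covariate. In all, 6 member probe sets did not overlap between the ligands, 21.4% of 28, against 18% of all probe sets. HDAC3 differed by -0.02 (-0.13 to 0.08) and the brightest NCOA2 probe set by 0.04 (-0.08 to 0.15), or -0.04 (0.835) and 0.06 (0.765) with the range covariate.

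**Figure D4:**
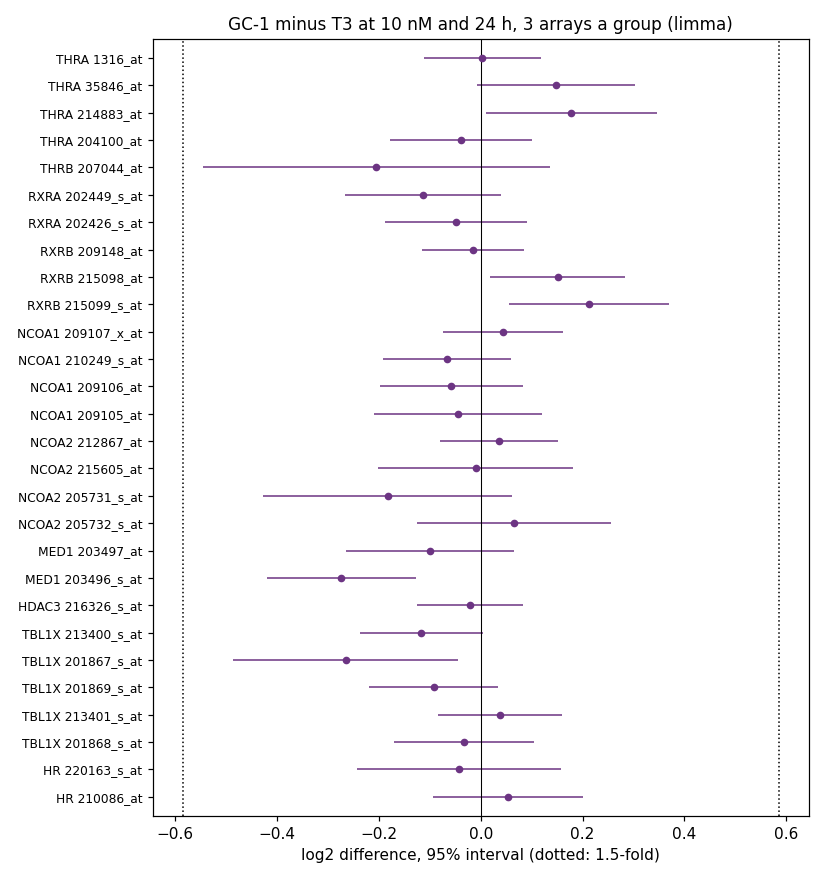
GC-1 minus T3 as a log2 difference with its 95% interval for each member probe set, 3 arrays a group, dotted lines at 1.5-fold. All 28 intervals, from the fit without the range covariate, lie inside the lines. MED1 203496_s_at has the lowest difference, at -0.27, and RXRB 215099_s_at the highest, at 0.21.

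The rest of the machinery was read from lists of other coregulators, 61 measured genes with RXRG among them, by the brightest probe set of each. Under T3, 3 of 61 rose and 0 fell (4.92%), against 6.22% of 11963 genes read the same way. Under GC-1, 1 rose and 1 fell (3.28%), against 3.26%. GC-1 against T3 gave 0 of 61, against 0%, and the mean of the ligands 3 higher and 1 lower (6.56%), against 6.39%. The medians of the 61 were -0.01, -0.03, -0.03 and -0.01.

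Of 14 measured coactivators and acetyltransferases, NCOA4 changed. NCOA4, known both as a nuclear receptor coactivator and as the receptor that sends ferritin to lysosomes, read 12.48, 12.52 and 12.49 in vehicle, 12.79, 12.78 and 12.75 with T3 and 12.77, 12.71 and 12.77 with GC-1. It rose by 0.28 ± 0.05 under T3 (adjusted p 0.00475) and by 0.25 ± 0.05 under GC-1 (0.0142), and all ligand arrays lay above all vehicle arrays. The T3 call was kept in 16 of 16 alternatives. The GC-1 call was kept in 11 of 16 and lost without vehicle replicate 1 (adjusted p 0.071) or 3 (0.0688) and without GC-1 replicate 1 (0.0665) or 3 (0.0706). GC-1 and T3 differed by -0.03 (-0.13 to 0.08).

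Of 14 measured corepressors and deacetylases, HDAC5 rose under T3 and CORO2A fell under GC-1. Both also passed in the mean of the ligands, and for each all ligand arrays lay on 1 side of all vehicle arrays. HDAC5 was at 0.23 there (adjusted p 0.0494, kept in 6 of 15 alternatives). CORO2A was at -0.18 (0.0408, kept in 5 of 15). HDAC5, a class II deacetylase, read 7.57, 7.82 and 7.68 in vehicle, 7.96, 7.92 and 7.98 with T3 and 7.82, 7.98 and 7.84 with GC-1. The T3 rise of 0.26 ± 0.07 had an adjusted p of 0.0496 and was kept in 3 of 16 alternatives. Leaving out vehicle replicate 1 or 3, or any 1 T3 or GC-1 array, ended it, with adjusted p from 0.0559 to 0.177. The GC-1 difference was 0.19 (0.191), and GC-1 minus T3 was -0.07 (0.668). CORO2A, an actin-binding subunit of the corepressor complex, read 7.83, 7.74 and 7.77 in vehicle, 7.70, 7.62 and 7.72 with T3 and 7.54, 7.56 and 7.49 with GC-1. It fell by 0.25 under GC-1 (adjusted p 0.0258); T3 gave -0.10 (0.269), and the direct difference was -0.14 (0.266). The GC-1 call was kept in 9 of 16 alternatives, and leaving out any 1 vehicle or GC-1 array ended it, with adjusted p from 0.0660 to 0.116.

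Of 21 measured Mediator subunits besides MED1, 0 changed in any comparison, against 6.22% of 11963 genes for T3 and 3.26% for GC-1. At an unadjusted p under 0.05 in limma there were 1 for T3 and 3 for GC-1. Of all 22215 probe sets, not only the brightest of each gene, that share was 21.1% for T3 and 15.9% for GC-1. By p in the mean of the ligands MED21 came first, which read 8.83, 8.85 and 8.70 in vehicle, 8.61, 8.68 and 8.45 with T3 and 8.52, 8.58 and 8.67 with GC-1. All ligand arrays were below vehicle, with differences of -0.22 (adjusted p 0.106) and -0.20 (0.175). The T3 value passed in 3 of 16 alternatives, down to 0.0229 with the range covariate. MED17, next in that order, gave -0.10 (0.345) and -0.18 (0.141), and GC-1 passed in 2 of 16 alternatives, with array weights (0.0485) and with limma's trended robust setting (0.0450).

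Of 11 measured SWI/SNF remodelling subunits, 1, SMARCB1, rose under T3 and 0 fell, against 6.22% of 11963 genes changed. Under GC-1 0 of 11 passed, against 3.26%. The list as a whole did not rise with SMARCB1. Its median was -0.096 for T3 and -0.07 for GC-1, against -0.015 and -0.004 for all probe sets. SMARCB1, a core subunit of these complexes, read 9.00, 8.99 and 8.98 in vehicle, 9.26, 9.25 and 9.21 with T3 and 9.13, 9.14 and 9.22 with GC-1. The arrays of both ligands were above vehicle. The T3 rise of 0.26 ± 0.05 (adjusted p 0.00879) was kept in 15 of 16 alternatives, all but the range covariate (0.0519). The GC-1 difference of 0.17 had an adjusted p of 0.0844 and passed in 5 of 16 alternatives, down to 0.0273. The mean of the ligands, 0.21, passed (0.0104) and was kept in 12 of 15. The dimmer probe set of the gene gave the opposite sign, -0.34 for T3 (0.124) and -0.08 for GC-1 (0.808). RXRG, the third retinoid X receptor gene, differed by 0.01 and -0.03.

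**Figure D5:**
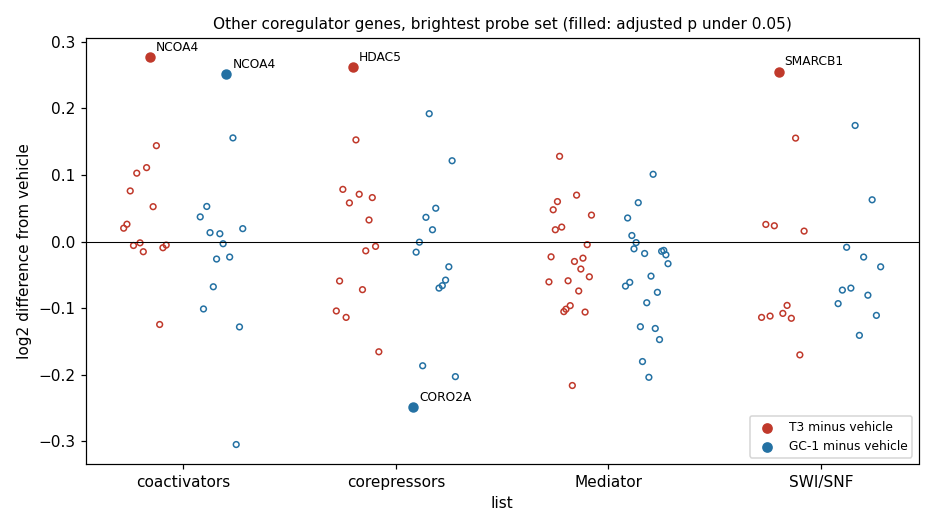
Log2 difference from vehicle (vertical axis) of the brightest probe set of each measured coregulator gene outside the members, by list, for T3 and GC-1 in separate colours; filled points have an adjusted p under 0.05. NCOA4, HDAC5 and SMARCB1 are filled above 0 for T3, NCOA4 above and CORO2A below 0 for GC-1, and the Mediator list has no filled point.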

How the data were processed

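Each array came as deposited log2 signals, and the submitters' processing notes name RMA without a version. The log base was inferred from the values, and fold changes rest on it. Slide, scan order and detection calls were not examined, since scanner files were not used here. RMA compresses dim signals. The number of arrays limits the precision. Of 36 pairs of arrays 0 were identical.

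Of 22277 probe sets 62 controls were left out. The annotation gave 1 symbol for 19064, several for 1043 and none for 2108. Probe sets marked _s or _x can bind several transcripts, and probe sets of 1 gene can differ.

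limma 3.58.1 in R 4.3.3 (lmFit, eBayes, two-sided, group means over 9 arrays, after a check on simulated data) tested all 22215 probe sets, with Benjamini-Hochberg adjustment within each comparison and a threshold of 0.05. Levels of different probe sets were used to order them, to pick the brightest of a gene and to describe the markers. No test compared them. Alternatives were quantile normalization, a mean signal of at least 6, probe sets averaged by gene, trended robust eBayes, array weights, only the compared arrays, a replicate block, the interquartile range as a covariate, and leaving out each array. Members and lists were chosen with earlier results of these data known. All members are named; of the other coregulators those changed, or otherwise the 2 of smallest p, of each list.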

Additional observations from a re-analysis of the deposited data

Results flagged for a closer look

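In 3 of the 28 member probe sets (10.7%) the T3 arrays were all above, or all below, the vehicle mean and the GC-1 arrays all on its opposite side, as was the case in 772 of all 22215 probe sets (3.48%). MED1 203496_s_at had a GC-1 minus T3 difference of -0.27, with T3 at 0.17 and GC-1 at -0.11 from vehicle; the test of the difference itself gave an adjusted p of 0.198 in limma. RXRB 215099_s_at differed by 0.21, with T3 at -0.09 and GC-1 at 0.13 (adjusted p 0.256). THRA 35846_at differed by 0.15, with T3 at -0.12 and GC-1 at 0.03 (adjusted p 0.373). In the THRA probe set T3 replicate 3, at 6.623, was just under the vehicle mean of 6.624. With each array's interquartile range as a covariate the THRA differences from vehicle were -0.02 (0.933) for T3 and -0.01 (0.961) for GC-1, both on the same side, and GC-1 minus T3 was 0.00 (0.991), adjusted p in parentheses. That of MED1 was -0.09 (0.675) and that of RXRB 0.20 (0.483). None of these differences passed the test, and no other probe set of MED1, RXRB or THRA showed the pattern.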

How the results depend on the processing

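The count of member probe sets that passed was 0 for GC-1 minus vehicle under all 17 alternatives. For T3 minus vehicle it was 1 with a mean signal of at least 6, 2 with array weights, and 0 to 3 when 1 array was left out, the 3 being those of RXRA, RXRB and THRA without T3 replicate 3. For GC-1 minus T3 it was 0 to 1 when 1 array was left out, and for the mean of the ligands 1 with the interquartile range as a covariate and 0 to 1 when 1 array was left out. Of 1860 member values under alternatives 1725 kept sign and side of the threshold, 9 passed it, and 126 that had not passed changed sign. These include probe sets averaged by gene, where each probe set is set against the mean of its gene. A change of sign there is a difference between probe sets. With the interquartile range as a covariate 7 of 28 members changed sign for T3 minus vehicle, 3 for GC-1 minus vehicle, 12 for GC-1 minus T3 and 3 for the mean of the ligands. The comparison of only 2 groups' arrays does not exist for the mean of the ligands. The labels number the replicates of each group 1 to 3. Deviations of same-numbered arrays from their group means correlated between -0.26 and 0.08, and 0 of 9 such pairs were the best match. Such correlations cannot tell whether same-numbered arrays were handled together. With the replicate number as a block, 0 members passed in any comparison, as without it; among other coregulators the block moved the adjusted p of NCOA4 under GC-1 to 0.0563, of CORO2A under GC-1 to 0.0718 and of HDAC5 under T3 to 0.0671. Dim probe sets, such as the lower ones of NCOA2, HR and THRA, may understate a change, and the interval of THRB limits what can be said of it.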

Other observations

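NR1D1, which encodes the nuclear receptor REV-ERB alpha, lies on the opposite strand of the THRA locus and overlaps its 3′ end. In the annotation 3 probe sets name both genes and were left out of the counts above. Their differences were 0.13, 0.01 and -0.08 for T3 and 0.23, -0.07 and 0.12 for GC-1, with adjusted p of at least 0.207 in every comparison, limma as above. They cannot be given to THRA or NR1D1.

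The probe sets whose profile over the 9 arrays was most like that of the brightest THRA probe set, 1316_at, by the root mean square difference of mean-centred log2 values, were those of TRAF4 (0.022), MAGT1 (0.0239) and ADPGK (0.0243). For THRB they were NFYA (0.125), EPS15L1 (0.126) and USP22 (0.135). The SD over the 9 arrays was 0.0537 for THRA and 0.262 for THRB.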
